A study of Mus musculus with 8 samples.

Results

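The CDK inhibitors and G1 cyclins described here are 10 genes that set the brake and the drive of the G1 phase: the inhibitors Cdkn1a, Cdkn1b, Cdkn2c and Cdkn2d, the cyclins Ccnd2, Ccnd3, Ccne1 and Ccne2, and the kinases Cdk4 and Cdk6. Their members were all the probe sets annotated to one of these genes alone. That rule gave 25 probe sets, of 34945 probe sets annotated to a single one of 18193 named genes on the array. Of the 25, 24 were bright enough to be tested, and every one of the 10 genes had at least 1 among them. The untested probe set was 1460291_at of Cdk6, which lay under the array median on 7 of 8 arrays.

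The study measured RNA of CD8+ T cells purified from mouse spleen, on 8 Affymetrix arrays. The 4 groups, of 2 arrays each, were naive wild-type (C57BL/6) cells, naive Elf4-/- KO cells, activated wild-type cells and activated Elf4-/- KO cells. Naive cells were left untreated, and activated cells had spent 3.5 days on plates coated with antibody to CD3, together with antibody to CD28, in RPMI medium holding 10% FBS and 5% T-stim. Elf4 encodes an ETS-family transcription factor, and the comparisons ask how its loss changes RNA levels in resting and in stimulated CD8+ T cells. The design of the Elf4 allele, the strain background of the knockout, the ages of the animals and any pooling are not given in the sources used here. The labels number the 2 arrays of a group without tying them to separate mice or cultures, so the spread behind each p-value could be technical.

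Passage through G1 depends on D-type cyclins bound to Cdk4 or Cdk6, followed by E-type cyclins bound to Cdk2. Both kinds of complex phosphorylate the retinoblastoma family of pocket proteins, which frees E2F factors to switch on the genes of S phase. The INK4 inhibitors (Cdkn2c and Cdkn2d) bind Cdk4 and Cdk6 directly, whereas the Cip/Kip inhibitors (Cdkn1a and Cdkn1b) bind whole cyclin and kinase complexes. Resting T cells hold abundant Cdkn1b protein, which is degraded after stimulation through the receptor, and cyclin D2, cyclin D3 and Cdk6 are the main D-cyclin partners of lymphocytes.

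Promoter windows, from 250 bases before to 50 bases after a transcript start, were available for 8 of the 10 genes, in 11 windows (RefSeq, GRCm38.p6). Ccnd2 and Ccne2 had no entry. The 4 windows below are shown because they belong to the gene that rose most on activation (Cdkn1a), the inhibitor with the smallest p between the naive genotypes (Cdkn2c), the gene whose window held the most E-boxes (Cdk4) and the gene whose window held the ETS letters (Ccnd3). Capitals mark GC boxes (GGGCGGG) in Cdkn1a and Cdkn2c, E-boxes (CACGTG) in Cdk4 and the ETS core (CCGGAAG) in Ccnd3, and each sequence runs 5′ to 3′ on the strand of the gene.
Cdkn1a, chr17:29093519-29093818, plus strand: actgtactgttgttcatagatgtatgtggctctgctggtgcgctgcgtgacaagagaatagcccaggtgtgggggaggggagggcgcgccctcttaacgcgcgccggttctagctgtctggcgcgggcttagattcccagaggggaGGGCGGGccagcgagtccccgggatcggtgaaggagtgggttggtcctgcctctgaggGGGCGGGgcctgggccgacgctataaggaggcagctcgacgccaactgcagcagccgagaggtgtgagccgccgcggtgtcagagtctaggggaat
Cdkn2c, chr4:109666707-109667006, minus strand: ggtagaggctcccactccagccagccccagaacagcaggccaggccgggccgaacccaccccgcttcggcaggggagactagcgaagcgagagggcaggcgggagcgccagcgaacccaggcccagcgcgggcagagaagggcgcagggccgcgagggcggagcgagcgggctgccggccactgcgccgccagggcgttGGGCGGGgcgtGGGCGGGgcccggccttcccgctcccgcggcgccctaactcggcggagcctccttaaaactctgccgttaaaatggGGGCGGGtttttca
Cdk4, chr10:127063285-127063584, plus strand: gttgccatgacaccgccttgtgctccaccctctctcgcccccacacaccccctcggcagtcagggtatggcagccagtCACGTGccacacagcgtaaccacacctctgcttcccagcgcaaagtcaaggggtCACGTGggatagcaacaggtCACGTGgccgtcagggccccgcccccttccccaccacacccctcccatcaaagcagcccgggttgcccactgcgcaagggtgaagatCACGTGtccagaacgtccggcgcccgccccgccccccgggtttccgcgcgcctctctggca
Ccnd3, chr17:47593217-47593516, plus strand: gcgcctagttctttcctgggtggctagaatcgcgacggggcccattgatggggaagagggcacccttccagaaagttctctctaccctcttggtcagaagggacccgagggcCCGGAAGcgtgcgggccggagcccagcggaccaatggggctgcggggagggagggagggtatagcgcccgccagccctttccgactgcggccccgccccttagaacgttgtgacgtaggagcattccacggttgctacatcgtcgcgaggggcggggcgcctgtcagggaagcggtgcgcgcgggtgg

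Of 32851 mouse promoters of the same length, searched on both strands, 25.6% held a GC box, against 7 of the 11 windows of these genes. An E-box was found in 7.15% of all promoters and in 3 of the 11 windows. The Cdk4 window held 4 E-boxes, a number reached or passed by 8 promoters, or 0.0244% of all. The ETS letters occurred in 8.86% of all promoters and in 1 window, of Ccnd3. The E2F letters (TTCCCGC) occurred in 4.6% of all promoters and in 1 window, of Cdkn2c, and the FOXO letters (GTAAACA) in 3.65% and in 1 window, another start of Ccnd3. The 11 windows had a median GC content of 66.3%, against 52.7% for all promoters. These matches describe letters only and show no binding.

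The arrays carried deposited MAS5 intensities scaled to a trimmed mean of 500 on each array, with array medians from 63.9 to 86. The 9 measured CD8 T cell markers had no member under the array median on all naive or all activated arrays. The brightest Elf4 probe set did not pass the test between genotypes in either state, and its arrays overlapped in naive but not in activated cells. Among naive cells it read 116 and 199 without and 165 and 192 with the knockout, and among activated cells 83.6 and 134 without and 76.2 and 80.6 with it. The targeted gene therefore gave no clear check of these labels, and whether its probes lie in the deleted part is unknown here. Naive and activated arrays differed in more than stimulation. Xist, the RNA of the inactive X chromosome, read 60.3 to 172 on the naive and 7703 to 10011 on the activated arrays, and the Y-linked Eif2s3y read 2537 to 5146 and 2.93 to 44. The 5′ probe set of the Lys control RNA read 49.6 to 73 and 52457 to 59027, and the Actb 3′ to 5′ ratio, a measure of RNA integrity, 1.96 to 2.5 and 5.9 to 11.1. The sample descriptions give the 4 naive arrays file labels of one array series and the 4 activated arrays those of another, and both naive wild-type arrays carry the same file label although their values differ. Activation, the array series, the sex pattern, the control RNA and RNA integrity therefore cannot be told apart in any comparison of activated with naive cells.

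In wild-type cells, activation went with far more Cdkn1a, Ccne2, Ccne1 and Cdk6 RNA, and with less Cdkn1b and Cdkn2d RNA. Cdkn2c and Cdk4 RNA were slightly higher, and so was Ccnd2 RNA by its brightest probe set, though its 7 probe sets disagreed. By the brightest probe set of each gene, 7 of the 10 genes rose, 2 fell and Ccnd3 did not pass the test. Of the 24 probe sets, 14 rose and 4 fell, 18 in all or 75% (limma, adjusted p under 0.05). Over all 27389 tested probe sets, 39.1% were called in this comparison, 17.4% higher and 21.8% lower. The median change of the 24 probe sets was 0.67 on the log2 scale, against -0.16 for all probe sets. Of the 24, 5 reached the array median on at most 1 of the 4 arrays of one state and so passed the filter through the other state. They were both probe sets of Cdkn1a, 1 of Ccne2, 1 of Cdkn1b and 1 of Ccnd3. Their calls on activation were favoured by the filter and add no separate support. With a filter at 6 of 8 arrays, which leaves these 5 out, 13 probe sets were called in wild-type and 11 in knockout cells. The share of all probe sets called under that filter is not given here, so these counts were not set against one.

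In Elf4 knockout cells, 6 of the 10 genes rose by their brightest probe set, 2 fell, and Cdkn2c and Cdk4 did not pass the test. Of the 24 probe sets, 12 rose and 4 fell, 16 in all or 66.7%, where 41.6% of all tested probe sets were called, 18.2% higher and 23.4% lower. The median change was 0.53, against -0.16 for all probe sets. In the knockout and the wild-type comparison together, 15 probe sets were called in both, which is 83.3% of the wild-type calls and 93.8% of the knockout calls.

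**Figure D1:**
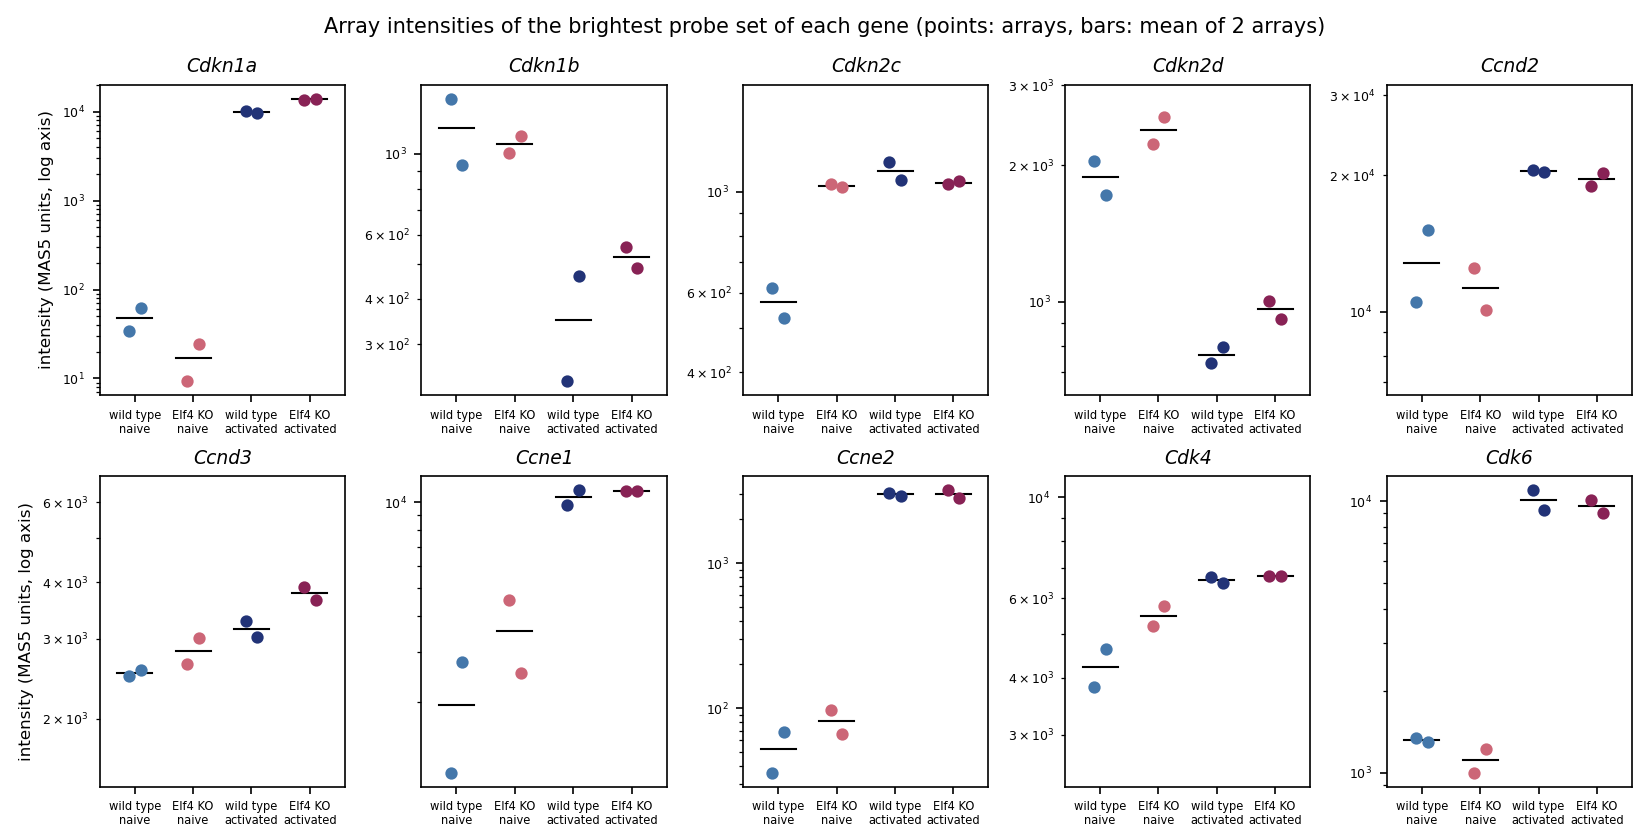
MAS5 intensity (log axis) of the brightest probe set of each of the 10 genes in the 4 groups, with a point for each array and a bar for the mean of 2 arrays. Cdkn1a reads 9.35 to 61.4 on the 4 naive arrays and 9635 to 14007 on the 4 activated arrays, while Cdkn2c reads 527 and 615 in naive wild-type cells and 1024 to 1166 in the other 3 groups.

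Cdkn1a, a target of p53 that inhibits cyclin-bound Cdk2 and can also help D cyclins assemble with their kinases, had the largest change of the 10 genes. Its brighter probe set, 1424638_at, read 34 and 61.4 in naive wild-type cells and 10274 and 9635 in activated wild-type cells. In knockout cells it read 9.35 and 24.7 when naive and 13553 and 14007 when activated. All 4 naive arrays lay under their array medians, and all 4 activated arrays lay far above, with no overlap. The rise was 7.32 on the log2(intensity + 16) scale in wild-type cells (SE 0.27, 95% confidence interval 6.73 to 7.92, adjusted p = 3.01e-08) and 8.75 in knockout cells (8.15 to 9.34, adjusted p = 9.24e-09). The other probe set, 1421679_a_at, rose by 6.48 and 7.44. On a scale with 16 added, the change of a gene this dim in naive cells is understated.

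Cdkn1b, the inhibitor that holds Cdk2 inactive in resting lymphocytes, moved the other way. Probe set 1434045_at read 1418 and 933 in naive and 238 and 462 in activated wild-type cells, and 1003 and 1123 in naive and 557 and 487 in activated knockout cells. Every activated array was below every naive array. The change was -1.74 in wild-type cells (adjusted p = 0.00087) and -1.0 in knockout cells (adjusted p = 0.0202). The knockout call for this probe set was lost when any one of the 4 knockout arrays was left out (adjusted p from 0.0529 to 0.114), and without a variance trend in the fit (0.0699). The second probe set, 1419497_at, changed by -2.27 and -2.13 (adjusted p = 0.00105 and 0.00148).

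The INK4 inhibitors differed from each other. Cdkn2d, which binds Cdk4 and Cdk6, read 2047 and 1718 in naive and 735 and 796 in activated wild-type cells, and 2227 and 2553 against 1006 and 918 in knockout cells. Both genotypes were lower when activated, with no overlap. The fall was by 1.28 in wild-type and by 1.3 in knockout cells (adjusted p = 0.000138 and 0.000112). Cdkn2c, which binds the same kinases, read 615 and 527 in naive and 1166 and 1063 in activated wild-type cells, a rise of 0.95 (adjusted p = 0.00133). In knockout cells it read 1041 and 1024 when naive and 1039 and 1058 when activated. Its knockout arrays overlapped between states, and the change was 0.02 (95% confidence interval -0.36 to 0.41, adjusted p = 0.935).

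Among the cyclins, Ccne2 and Ccne1, which activate Cdk2 at the entry to S phase and are themselves E2F targets, rose the most. Ccne2 read 35.9 and 68 in naive and 3031 and 2925 in activated wild-type cells, and 97.2 and 66.6 against 3189 and 2836 in knockout cells. Of the 4 naive arrays, 3 lay under their array medians, and the activated arrays were all far brighter. The fitted change was 5.5 in wild-type cells (adjusted p = 1.44e-07) and 4.97 in knockout cells (adjusted p = 2.57e-07), and as for Cdkn1a its size rests on dim naive readings and on the 16 added. Ccne1 read 1132 and 2765 in naive and 9775 and 11026 in activated wild-type cells, and 4561 and 2531 against 10992 and 10907 in knockout cells. The 2 naive arrays of each genotype stood further apart than the activated ones. The rise was 2.54 in wild-type cells (adjusted p = 0.000193) and 1.68 in knockout cells (adjusted p = 0.00282). The second Ccne1 probe set, 1416492_at, rose by 1.93 and 1.18 (adjusted p = 2.90e-05 and 0.000878).

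The 7 probe sets of Ccnd2, the D cyclin that antigen and growth-factor signals raise in lymphocytes, disagreed on activation. The brightest, 1455956_x_at, read 10488 and 15124 in naive and 20578 and 20317 in activated wild-type cells, and 12504 and 10079 against 18949.5 and 20243 in knockout cells. Activated arrays were higher in both genotypes without overlap, by 0.7 in wild-type (adjusted p = 0.00641) and 0.8 in knockout cells (adjusted p = 0.00263). The wild-type call was lost without the first naive wild-type array (0.43, adjusted p = 0.0503) and without a variance trend (adjusted p = 0.0663). Probe set 1416123_at read 611 and 582 in naive and 2191 and 1554 in activated wild-type cells, a rise of 1.6, and rose by 1.97 in knockout cells. Probe set 1448229_s_at rose by 0.94 and 1.21. The other 4 did not pass the test in either genotype, and their changes ran from -0.35 to 0.64. Suffixes x and s mark probe sets whose probes can also bind other transcripts.

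Ccnd3, the D cyclin needed for expansion of thymocytes, had probe sets that went opposite ways. The brightest, 1415907_at, read 2486 and 2566 in naive and 3278 and 3024 in activated wild-type cells, and 2642 and 3009.5 against 3904 and 3659 in knockout cells. Activated arrays were higher in both genotypes. The change was 0.32 in wild-type cells (95% confidence interval 0.01 to 0.62, adjusted p = 0.0918) and 0.42 in knockout cells (adjusted p = 0.0291). The knockout call was lost when either activated knockout array, the first naive knockout array or either activated wild-type array was left out (adjusted p from 0.0507 to 0.157) and without a variance trend (0.11), while centring each array on its median made the wild-type call (0.51, adjusted p = 0.0447). Probe set 1438805_at read 834 and 952 in naive but 45 and 17.9 in activated wild-type cells, and 689 and 749.9 against 18.4 and 90.9 in knockout cells. It fell by 4.32 and 3.6 (adjusted p = 4.47e-05 and 0.000146). The third probe set, 1444323_at, overlapped between states. With the mean of the 3 probe sets in place of the brightest, Ccnd3 changed by -1.30 and -1.12, so the direction given for this gene depends on the probe set.

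Both kinase partners of the D cyclins rose in wild-type cells, Cdk6 by much more. Cdk6, the kinase that dominates in T cells, read 1347 and 1298 in naive and 10971 and 9286 in activated wild-type cells by 1455287_at, and 1001 and 1220.1 against 10111 and 9071 in knockout cells. The groups lay far apart, with ratios of means of 7.66 in wild-type cells (log2 change 2.92, adjusted p = 1.92e-07) and 8.64 in knockout cells (3.1, adjusted p = 1.27e-07). Probe set 1435338_at rose by 2.98 and 2.87. Cdk4 read 3819 and 4644 in naive and 6682 and 6492 in activated wild-type cells by 1422441_x_at, a rise of 0.64 (adjusted p = 0.00272). In knockout cells it read 5203 and 5749 when naive and 6723 and 6715 when activated, a change of 0.3 that did not pass the test (adjusted p = 0.098), although the mean of its 3 probe sets did (0.42, adjusted p = 0.0332). Of the 3 Cdk4 probe sets, 1422440_at passed in both genotypes, with 0.94 in wild-type (adjusted p = 0.000784) and 0.67 in knockout cells (adjusted p = 0.00627).

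**Figure D2:**
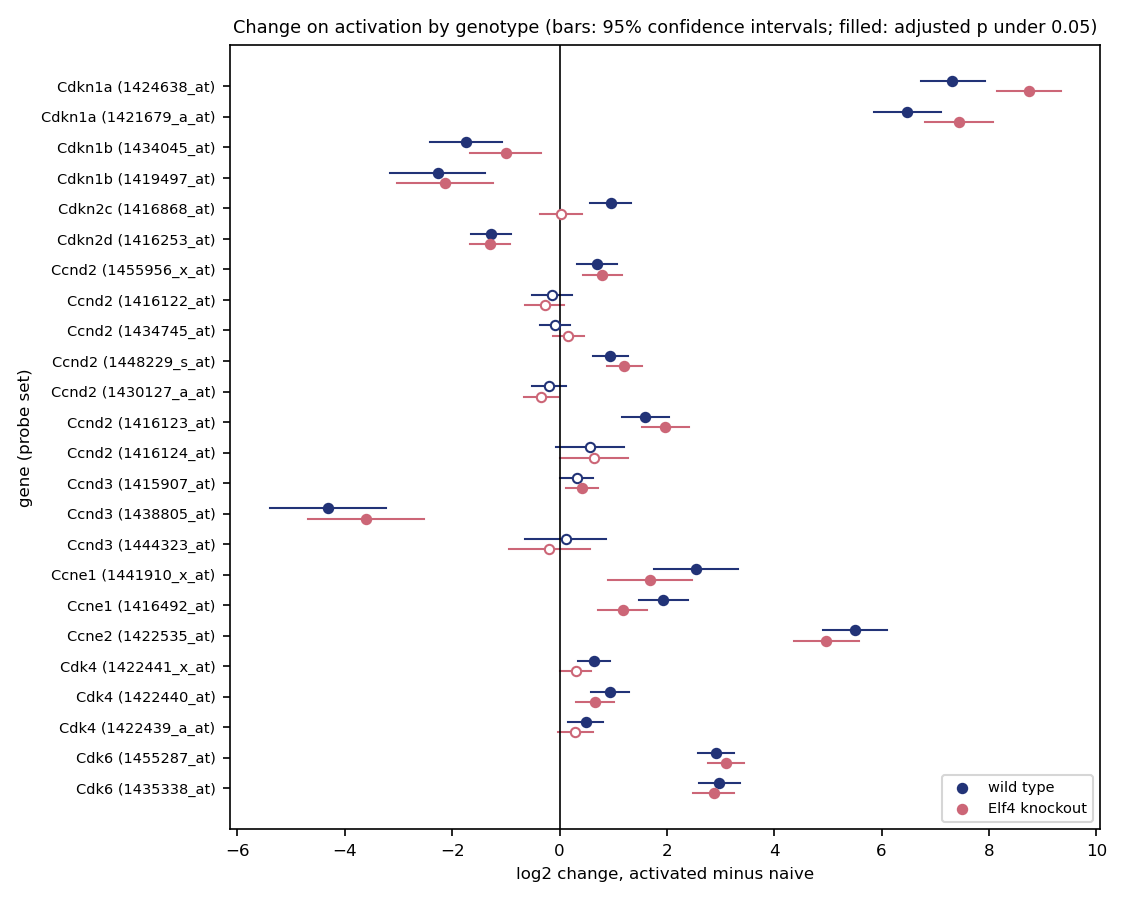
Change on activation, as log2(intensity + 16) of activated minus naive arrays, for the 24 tested probe sets in each genotype, with 95% confidence intervals and filled points for adjusted p under 0.05. Cdkn1a lies furthest to the right in both genotypes, and the Ccnd3 probe set 1438805_at furthest to the left.

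When the Actb 3′ to 5′ ratio of each array entered the fit as a covariate, 6 of the 24 probe sets were still called in wild-type and 0 in knockout cells, against 1.77% and 0% of all probe sets. The 6 were both of Cdkn1a, both tested ones of Cdk6, Ccne2 and the falling probe set of Ccnd3. In knockout cells this fit gave changes of 7.83 for Cdkn1a, 4.56 for Ccne2 and 3.69 for Cdk6 (adjusted p from 0.192 to 0.379), and it turned the sign for Cdkn1b, Ccnd2, Ccne1 and Cdk4 (0.52, -0.24, -0.04 and -0.05). The ratio does not overlap between naive and activated arrays, so the covariate and the activation state share most of their variation.

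The remaining genes of the pathway were counted on activation by the brightest probe set of each gene. Beside these counts stand the shares over all tested probe sets. They were 17.4% higher and 21.8% lower in wild-type cells, and 18.2% higher and 23.4% lower in knockout cells. Of 5 other CDK inhibitors and pocket proteins tested, 3 rose and 0 fell in each genotype. Of 11 other G1 and S cyclins, kinases and activators, 6 rose and 1 fell in wild-type cells, and 7 rose and 2 fell in knockout cells. Of 11 genes for the turnover of Cdkn1b protein and cyclin E, 7 rose and 1 fell in each genotype. Cks1b, the adaptor that brings Cdkn1b to its ubiquitin ligase, rose by 4.33 in wild-type and 3.95 in knockout cells. Rnf123, a ligase subunit for Cdkn1b in the cytoplasm, fell by 2.56 in wild-type cells and fell by 2.80 in knockout cells. Transcript and turnover genes thus both moved on activation, and protein was not measured.

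Downstream of the kinases, 8 of 10 E2F factors and dimer partners rose and 0 fell in wild-type cells, and 6 rose and 1 fell in knockout cells. Of 18 tested E2F target genes of S phase, a list that includes Ccne1 and Ccne2, 17 rose and 0 fell in each genotype, with medians of 2.58 and 2.65. All 17 tested mitosis genes rose in each genotype, with medians of 5.06 and 3.58. Of 13 tested p53 pathway genes, 8 rose and 3 fell in wild-type cells, and 7 rose and 4 fell in knockout cells. Ccng1 and Zmat3, targets of p53 like Cdkn1a, rose by 1.85 and 2.38 in wild-type cells and by 2.43 and 2.51 in knockout cells. Btg2, another p53 target, fell by 2.10 in wild-type cells, and Sesn1 fell by 1.79 in wild-type cells and fell by 2.55 in knockout cells. The part of p53 in the rise of Cdkn1a was not tested.

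Of 15 quiescence factors that act upstream of the inhibitors, 0 rose and 10 fell in wild-type cells, and 0 rose and 8 fell in knockout cells. Klf2, which keeps T cells at rest, fell by 5.67 in wild-type cells and fell by 6.88 in knockout cells. Smad3, which carries TGF-beta signals, fell by 2.34 and by 2.39, and Slfn2 fell by 2.73 and by 2.41. As in any bulk sample, fewer cells of a type and less RNA per cell cannot be told apart.

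Cell type markers were also compared between states, where 39.1% of all tested probe sets were called in wild-type and 41.6% in knockout cells. Some of the marker counts below lie near these shares. All 9 measured CD8 T cell markers fell in each genotype, and their summed intensity was 82405 to 99607 on the 4 naive arrays and 23662 to 28280.3 on the 4 activated arrays. From naive to activated arrays, the B cell markers went from sums of 4381 to 11559.8 to sums of 619 to 706. In the same order, the 8 CD4 and regulatory T cell markers gave 1243 to 3005 and 24829 to 29816, and the 7 dendritic cell markers 411 to 858 and 3705 to 4374. Single genes carried these sums. In wild-type cells Il2ra went from a mean of 39.7 to 12659 and Ctla4 from 424 to 10539, while Gpr83 went from 187 to 89.6 and Cd40lg from 82.6 to 53.1. Batf3 went from 57.8 to 3772, while Itgax, the integrin chain that marks dendritic cells, went from 263 to 56.7. The 5 measured erythroid markers gave 243 to 534 and 224 to 379.7. Of 10 tested granulocyte markers, 0 changed in wild-type cells and 9 fell in knockout cells, with medians of -0.57 and -4.01. Of the 11 measured, 6 lay under the array median on all activated arrays. Falls of markers that passed the filter through naive arrays alone were favoured by it. Of 7 tested macrophage and monocyte markers, 3 fell in wild-type and 6 in knockout cells. Of 5 NK cell markers, 1 rose and 2 fell in wild-type cells, and 1 rose and 3 fell in knockout cells, and of 6 plasma cell markers, 1 rose and 2 fell in each genotype. The part of these changes in the activation results was not tested.

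Between naive knockout and naive wild-type cells, 0 of the 24 probe sets passed the test, where 0.562% of all tested probe sets were called. At an unadjusted p under 0.05, 5 of the 24 would be counted, against 12.1% of all probe sets. The arrays of the 2 genotypes did not overlap for 13 of the 24 probe sets, 7 higher and 6 lower in the knockout, against 38.2% of all probe sets, 18.4% higher and 19.8% lower. The median change of the 24 was -0.08 and the median size 0.23, against 0.28 for all probe sets. The 5 were 1 probe set each of Cdkn1a, Cdkn2c and Cdk4 and both of Ccne1.

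Cdkn2c had the smallest adjusted p of the 10 genes in naive cells. As given above, it read 615 and 527 in wild-type cells, against 1041 and 1024 in knockout cells. Both knockout arrays were above both wild-type arrays, and the group means were 571 ± 62.1 and 1032 ± 12.3 (SD, n = 2 each). The ratio of means was 1.81, and the log2 change was 0.84 (SE 0.17, 95% confidence interval 0.45 to 1.23, limma adjusted p = 0.0741). Naive knockout cells thus had about the Cdkn2c level of activated cells of either genotype, but the difference did not pass the threshold.

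Ccne1 was also read higher in naive knockout cells. Probe set 1416492_at gave 281 and 352 in wild-type cells, against 613 and 501 in knockout cells, without overlap, a change of 0.79 (95% confidence interval 0.33 to 1.24, adjusted p = 0.163). Probe set 1441910_x_at gave 1132 and 2765 against 4561 and 2531, which overlap, a change of 0.93 (0.16 to 1.71, adjusted p = 0.322). Without the second naive wild-type array its change was 1.57 and passed the test (adjusted p = 0.0339), and 1 probe set of the 24 was then called in place of 0, against 0.84% of all probe sets. Without the first naive wild-type array its change was 0.3, and without the first naive knockout array 0.51.

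Cdkn1a went the other way in naive cells. The brighter probe set read 34 and 61.4 in wild-type cells, against 9.35 and 24.7 in knockout cells, a change of -0.95 (95% confidence interval -1.55 to -0.36, adjusted p = 0.19). The 2 genotypes did not overlap, but every array was under its median, so the value compares dim readings, and it ran from -1.3 to -0.61 when 1 array was left out. The dimmer probe set changed by -0.37 (adjusted p = 0.675).

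Cdk4 by 1422441_x_at read 3819 and 4644 in wild-type cells, against 5203 and 5749 in knockout cells, without overlap, and changed by 0.38 (95% confidence interval 0.08 to 0.67, adjusted p = 0.291). For the other genes, the change of the brightest probe set was -0.11 for Cdkn1b, 0.34 for Cdkn2d, -0.17 for Ccnd2, 0.16 for Ccnd3, 0.55 for Ccne2 and -0.26 for Cdk6. Their adjusted p-values ran from 0.456 to 0.929. The intervals in the plot of genotype differences show which sizes these arrays leave possible.

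Other genes of the pathway passed the test between the naive genotypes. Of the 17 tested mitosis genes, 4 were higher in the knockout and 0 lower. Mki67, the proliferation antigen, read 214 ± 57.3 in wild-type and 860.3 ± 206 in knockout cells (SD, n = 2 each), a change of 1.93 (adjusted p = 0.00424). Bub1b, Top2a and Prc1, which act in the spindle checkpoint, in chromosome untangling and in cytokinesis, changed by 1.89, 1.35 and 1.34. Of the 18 E2F targets, 1 was higher, Rrm2, the small subunit of ribonucleotide reductase, with 369 ± 18 against 759 ± 51 and a change of 1.01 (adjusted p = 0.0132). Of the 11 other G1 and S genes, 1 was higher, Cdc25b, a phosphatase that activates CDKs, with 753 ± 41.7 against 1898 ± 397 and a change of 1.3 (adjusted p = 0.0294).

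Lower in naive knockout cells were 1 of 15 quiescence factors and 1 of 13 p53 pathway genes. Klf4, a zinc-finger factor that can activate Cdkn1a and restrains CD8 T cell division, read 2378 ± 730.1 in wild-type and 419 ± 165 in knockout cells, a change of -2.48 (adjusted p = 0.0118). Plk2, a kinase induced by p53, read 185 ± 92.6 against 26.2 ± 3.03, a change of -2.18 (adjusted p = 0.0248). None of the other CDK inhibitors and pocket proteins (0 of 5), turnover genes (0 of 11) or E2F factors (0 of 10) was called.

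These 8 calls between naive genotypes kept their direction under every alternative but depended on the fit. None of them held without a variance trend or with the 4 naive arrays alone (adjusted p from 0.126 to 0.528). Leaving out the second naive knockout array ended 7 of the 8, all but that of Mki67, and leaving out any one activated array ended 6, all but those of Mki67 and Klf4. The call of Cdc25b was also lost without the first naive wild-type array, and that of Plk2 without the first naive knockout array and with an offset of 64. With the Actb ratio as a covariate, Mki67 alone was still called.

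**Figure D3:**
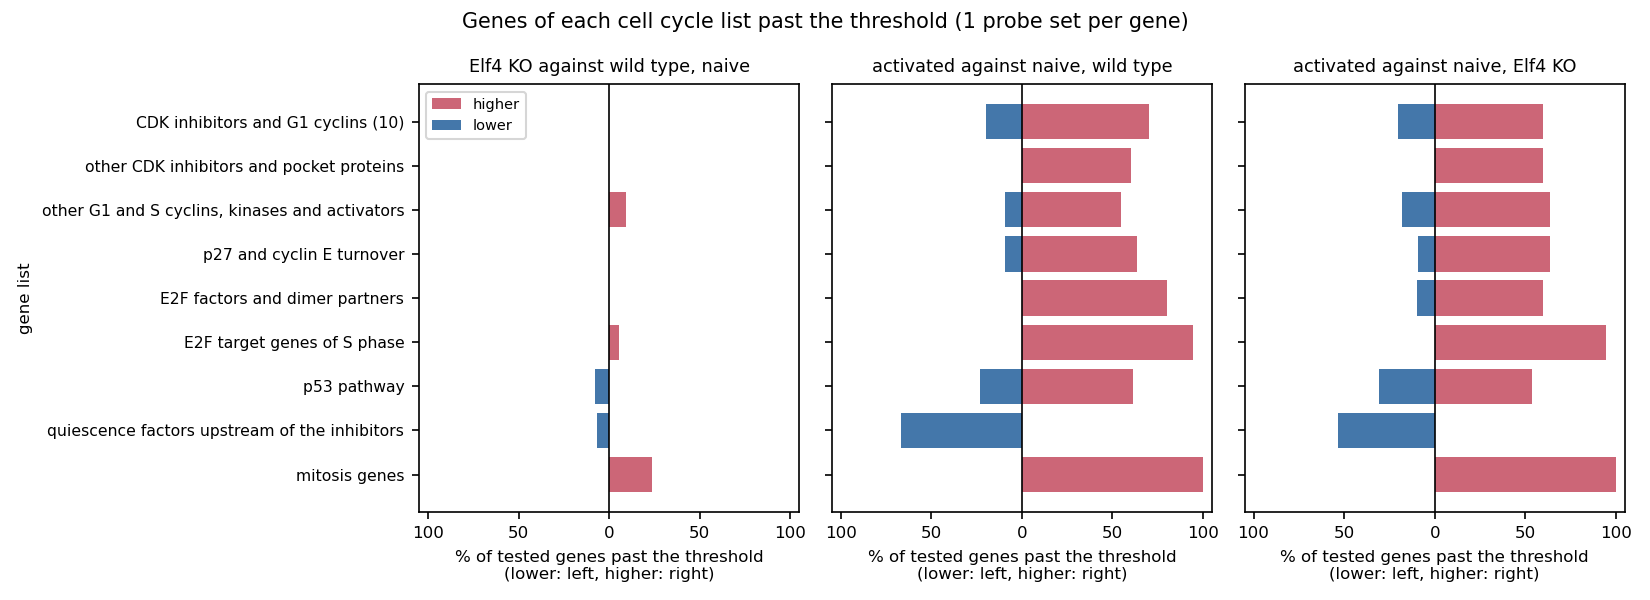
Share of the tested genes of each list that passed the test, with genes higher drawn to the right and genes lower to the left, for the naive genotype comparison and for activation in each genotype. Of the 17 mitosis genes, 4 are higher in naive knockout cells and all 17 are higher on activation, while 0 of the 10 CDK inhibitors and G1 cyclins pass the test between naive genotypes.

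The 9 CD8 T cell markers summed to 99607 and 95772 in naive wild-type arrays against 90799 and 82405 in naive knockout arrays, with 0 of 9 called. Summed markers of other cells also lay apart between the naive genotypes, except those of B cells, which overlapped. For scale, 38.2% of all single probe sets did not overlap in this comparison. The 11 granulocyte markers summed to 556 and 912 in wild-type arrays against 4869 and 19812 in the knockout arrays, with 4 of 10 tested markers higher, and Cxcr2 under the array median on every naive array. The filter needs 2 of 8 arrays at or above the median, so the naive knockout arrays alone can admit a marker. Calls of any marker admitted that way were favoured by the filter and add no separate support. The 7 plasma cell markers summed to 6123 and 5253 against 13837 and 22914, with 1 of 6 tested higher. Most of that rise was Igha, with means of 382 in wild-type and 11089 in knockout cells, while Xbp1 had 3834 and 3777. The 6 NK cell markers summed to 2797 and 4342 against 6321 and 9473, with 1 of 5 higher. The 11 macrophage and monocyte markers summed to 2358 and 2739 against 3939 and 6455, with 0 of 7 higher. The 9 B cell markers summed to 5540.4 and 4381 against 4449 and 11559.8, with 0 of 9 higher. The 8 CD4 and regulatory T cell markers summed to 1243 and 1399.8 against 2405 and 3005, with 2 of 6 higher and Cd4 and Il2ra under the array median on every naive array. Ikzf2 (means of 327 in wild-type and 1247 in knockout cells) and Gpr83 (187 and 864) carried that sum. Ctla4 (424 and 308), Cd40lg (82.6 and 67.1) and Zbtb7b (159 and 79.5) read lower in the knockout. The 7 dendritic cell markers summed to 411 and 763 against 775 and 858, with 0 of 5 tested higher. The 5 erythroid markers went the other way, with 534 and 457 against 253 and 243 and 0 of 2 tested lower. No marker was listed at 0. The part of these cells in the naive values of Cdkn2c, Ccne1 and the mitosis genes was not tested.

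Between activated knockout and activated wild-type cells, 0 of the 24 probe sets passed the test and 0 had an unadjusted p under 0.05, where 0.215% of all tested probe sets were called and 10.5% had such a p. The arrays did not overlap for 9 of the 24, 6 higher and 3 lower, against 47% of all probe sets, 22.5% higher and 24.5% lower. The median change was 0.03 and the changes ran from -0.31 to 0.63.

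Of the inhibitors, Cdkn1a read 10274 and 9635 in wild-type cells, against 13553 and 14007 in knockout cells, so both knockout arrays were higher. The change was 0.47 (95% confidence interval -0.13 to 1.06, adjusted p = 0.597), and 0.59 for the dimmer probe set (adjusted p = 0.506). When the 4 activated arrays alone were fitted, 2 of the 24 probe sets passed, both of Cdkn1a (adjusted p = 0.0311 for the brighter one), where 719 of all probe sets, or 2.63%, passed. That fit takes the spread from the 4 activated arrays, and the fit of all 8 arrays takes 1 spread per probe set over the 4 groups. Cdkn1b changed by 0.63 (-0.04 to 1.29, adjusted p = 0.506), or by 0.17 without the first and 1.08 without the second activated wild-type array. Cdkn2d changed by 0.32 (adjusted p = 0.549) and Cdkn2c by -0.09 (adjusted p = 0.92).

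The cyclins and kinases of activated cells lay closer together. The changes were -0.06 for Ccnd2, 0.26 for Ccnd3, 0.08 for Ccne1, 0.01 for Ccne2, 0.03 for Cdk4 and -0.08 for Cdk6. Ccne2, for example, read 3031 and 2925 in wild-type cells, against 3189 and 2836 in knockout cells, with overlap, and a 95% confidence interval of -0.59 to 0.61. Of the 8 pathway lists, 1 gene passed the test between activated genotypes. It was Klf2, which read 263 ± 30 in wild-type and 114 ± 6.63 in knockout cells (SD, n = 2 each), a change of -1.1 (adjusted p = 0.0462). That call was lost under 12 of 19 alternatives, the loss of any one of the 4 activated arrays among them. The Actb 3′ to 5′ ratio was 5.98 and 5.9 on the activated wild-type and 7.44 and 11.1 on the activated knockout arrays, without overlap. With it as a covariate, the Klf2 change was -1.26 (adjusted p = 0.692).

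**Figure D4:**
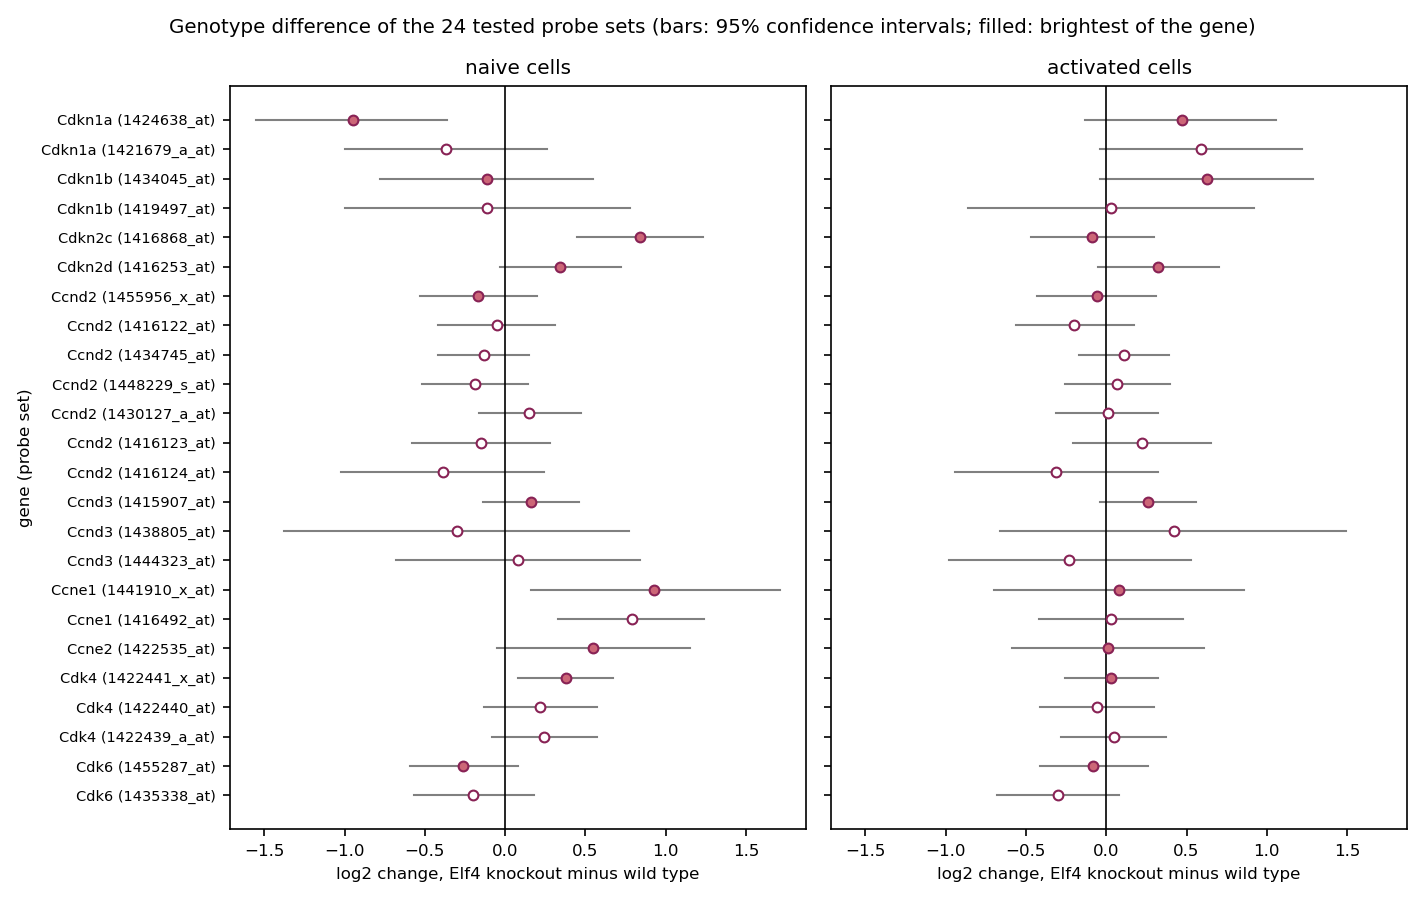
Elf4 knockout minus wild type on the log2(intensity + 16) scale for the 24 tested probe sets in naive and in activated cells, with 95% confidence intervals and filled points for the brightest probe set of each gene. Cdkn2c and both Ccne1 probe sets lie to the right and Cdkn1a to the left in naive cells, and in activated cells every interval includes 0.

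Whether the genotype difference itself changed between states was tested with an interaction term. None of the 24 probe sets passed (0 of 24, smallest adjusted p = 0.231), where 0.0584% of all tested probe sets were called, and 4 had an unadjusted p under 0.05, against 9.73% of all probe sets. Cdkn1a differed by 1.42 (SE 0.38, adjusted p = 0.231), a value that contains the dim naive readings. Cdkn2c differed by -0.93 (95% confidence interval -1.47 to -0.38, adjusted p = 0.231). The different calls for Cdkn2c on activation in the 2 genotypes were thus not shown to differ by this test. In the 8 pathway lists, Mki67 alone passed, with -2.3 (adjusted p = 0.0224), and that call was lost under 7 of 18 alternatives.

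Replicate arrays lay closer together for these genes than for all probe sets, by the median, in each of the 4 groups. The median difference between the 2 arrays of a group was 0.26 for the 24 probe sets and 0.36 for all in naive wild-type cells, and 0.27 and 0.33 in naive knockout cells. In activated cells the same pair of medians was 0.2 and 0.24 for wild-type cells, against 0.09 and 0.25 in knockout cells. By this median, naive replicates lay further apart than activated ones in each genotype. The largest difference among the 24 was 1.28 in naive and 0.91 in activated wild-type cells, but 0.85 in naive and 1.64 in activated knockout cells. The fit takes 1 spread per probe set over the 4 groups, so the SE is the same in both genotype comparisons.

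Other named genes followed the profile of each member over the 8 arrays, measured as the root mean square difference of centred log2 values. Ccnd3 was closest to Pdcl3 (0.03) and Capn2 (0.05), and Cdk4 to Cnot11 (0.06) and Tmbim4 (0.07). Cdkn2c, whose lower readings in naive wild-type cells did not pass the test between genotypes, was closest to 2310057M21Rik (0.1) and Snapc3 (0.1). Cdkn2d was closest to Tmx4 (0.09) and Tpp1 (0.1), Ccnd2 to Fkbp1a (0.08) and Bzw1 (0.09), and Cdk6 to Sqle (0.1) and Eps8 (0.14). Ccne1 was closest to Socs2 (0.13) and Rad51ap1 (0.23), Ccne2 to Plscr1 (0.27) and Gm17767 (0.28), and Cdkn1b to Rexo1 and Arhgef11 (0.16 each). Both matches of Ccne1 were dim in naive cells. In wild-type and knockout cells, Socs2 had naive means of 21.7 and 54 and Rad51ap1 of 10.9 and 41.2, against 1948 and 3546 for Ccne1. Cdkn1a was closest to Cth (0.5) and to a probe set of Xist (0.56), the RNA that separates activated from naive arrays here.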

How the data were processed

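Total RNA of CD8+ splenic T cells was labelled by the one-cycle Affymetrix method and measured on 8 one-colour arrays, 2 in each of 4 groups taken from the sample titles. The authors deposited a table of MAS5 intensity values for 45101 probe sets, per the submitters' processing notes. The values are linear, with no missing value and none at or under 0, and each array has a 2% trimmed mean of 500. Detection calls were not used here, and with 2 arrays in a group the number of arrays limits the precision.

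The 64 control probe sets were left out. Symbols came from the platform annotation, updated through Entrez IDs to RefSeq GRCm38.p6 for 34741 of 34945 probe sets with 1 symbol (204 kept the platform's), while 932 with several symbols and 9224 with none were not named. Probe sets dimmer than the median of the array on all but 1 or 0 of the 8 arrays were left out, which left 27389 probe sets to test. log2 of the deposited intensity plus 16 was fitted to 4 group means with limma 3.58.1 in R 4.3.3 (lmFit, eBayes with a trend, 4 residual and 6.7 prior degrees of freedom). Tests were two-sided, with Benjamini-Hochberg adjustment over all tested probe sets within each of 5 contrasts and a threshold of 0.05. The model was also run on simulated arrays with known changes between the naive genotypes. It called 10% of 100 probe sets changed by 1 on the log2 scale and 40% of 100 changed by 2, with 0 false calls. A genotype difference of such a size can therefore go uncalled with these arrays. The changed probe sets were drawn at random from all 27389 tested, with the same mean for every group otherwise. The rates are thus not those of the member probe sets, whose replicates lay closer together by the median. Every adjusted p in the text comes from limma. The probe set with the highest mean stands for a gene, and no probe set's level is set against another's. The text names all members, up to 4 genes of each other list with the smallest p, Elf4, Klf2 and Klf4, and 2 nearest profiles for each member. The members, the lists and the tests were chosen with earlier results of these data known. The alternatives were other scalings, offsets, filters, fits and gene summaries, an integrity covariate, a replicate block and leaving out each array.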

Additional observations from a re-analysis of the deposited data

Results flagged for a closer look

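Mki67, which marks dividing cells, had a genotype difference that passed the test of a change between states, a call that depends on the fit. It was higher in naive knockout than in naive wild-type cells by 1.93 on the log2 scale (limma adjusted p = 0.00424), with 214 ± 57.3 against 860.3 ± 206 (SD, n = 2 each). In activated cells the difference was -0.37 (limma adjusted p = 0.578), with 13949 ± 338 in wild-type and 10789.9 ± 294 in knockout cells. The interaction term was -2.3 (limma adjusted p = 0.0224), and it was the only gene of the 8 pathway lists with such a call. It was lost under 7 of 18 alternatives: without a variance trend (limma adjusted p = 0.272), with the Actb ratio as a covariate (0.748), and without any one of the 4 activated arrays or the second naive knockout array. The value ran from -2.6 to -2.04. None of the 24 probe sets of the CDK inhibitors and G1 cyclins had one.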

How the results depend on the processing

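With 2 arrays in a group, both calls and directions moved. Of 975 alternative values for the 10 genes, 919 kept their direction and their side of the threshold, 24 lost a call, 4 gained one and 28 turned their sign. Of the 400 that leave out 1 array, 376 kept both, 10 lost a call, 1 gained one and 13 turned. In the genotype and interaction contrasts none of the genes was called to begin with, so staying uncalled counts as kept there. Naive genotype calls over all probe sets were 154, and became 18 with the Actb ratio as a covariate, 3 without a variance trend, 102 without a filter and 5 with the 4 naive arrays alone. Leaving out 1 array gave 27 to 235. Activated genotype calls were 59, and became 6 with the Actb ratio, 31 with arrays centred on their median, 7 without a trend, 719 with the 4 activated arrays alone and 26 with a replicate block, and leaving out 1 array gave 8 to 103. Activation calls fell to 484 in wild-type and 0 in knockout cells with the Actb ratio, from 10714 and 11396. Interaction calls were 16, and became 0 with the Actb ratio, 0 without a trend, 26 with an offset of 64, and 0 to 84 when 1 array was left out. Of the 24 probe sets, 2 were called between activated genotypes with those 4 arrays alone, and the Actb ratio left 6 in wild-type and 0 in knockout activation. Leaving out 1 array gave 0 to 1 between naive genotypes, 17 to 18 for wild-type and 13 to 16 for knockout activation.

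Some directions turned. With the Actb ratio, the activated genotype difference became -0.40 for Ccne1, -0.10 for Ccne2, -0.07 for Cdk4 and 0.09 for Cdk6, and knockout activation became -0.24 for Ccnd2, -0.04 for Ccne1, -0.05 for Cdk4 and 0.52 for Cdkn1b. The interaction became -0.29 for Ccnd2 and 0.28 for Cdkn2d. With the mean of a gene's probe sets, Ccnd3 became -0.02 between naive genotypes, -1.30 for wild-type and -1.12 for knockout activation, and Cdk6 became 0.02 between activated genotypes. Quantile normalization turned the Ccnd2 interaction to -0.15. Leaving out 1 array gave -0.43 to 0.10 for Ccnd2 and -0.41 to 0.18 for Cdkn1b between naive genotypes. Between activated genotypes it gave -0.01 to 0.16 for Ccne1, -0.07 to 0.10 for Ccne2 and -0.20 to 0.04 for Cdk6. For the interaction it gave -0.16 to 0.37 for Ccnd2 and -0.15 to 0.11 for Cdkn2d. The causes were not tested.

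Centring arrays on their median moved the median activation change of all probe sets from -0.16 to 0.03 in wild-type and -0.04 in knockout cells. The share of higher calls moved from 44.4% to 55.2% for wild-type activation, from 55.8% to 72.7% between naive and from 52.5% to 64.5% between activated genotypes. Members rose and fell in 15 and 4 probe sets on wild-type activation under it, and in 13 and 6 on knockout activation under quantile normalization. Same-numbered arrays did not deviate together: the replicate differences correlated at -0.17 between naive genotypes, 0.02 between activated genotypes, and 0.07 and -0.04 between states in wild-type and knockout cells. The replicate block gave 108 naive genotype calls and the crossed pairing, chosen after seeing the data, 167, and neither called any of the 24 probe sets between genotypes. The block also ended the activated Klf2 call (adjusted p = 0.0529). A fit of the arrays of 1 comparison alone gives no value for the interaction.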
